A study of Caenorhabditis elegans with 4 samples.

Results

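The 7 fatty acid desaturase genes of Caenorhabditis elegans, fat-1 to fat-7, and the transcription factor gene sbp-1 were examined in 2 genotypes. These 8 genes were chosen by their names, with earlier results of these data known, and all 8 were among the 13685 genes tested. The first genotype was isp-1(qm150), which carries a mutation in the iron-sulfur subunit of complex III of the mitochondrial respiratory chain. The second was isp-1(qm150);ceh-23(ms23), in which ceh-23, for a homeodomain protein, is mutated as well. Both genotypes thus carried the isp-1 mutation, and no wild-type sample was compared. All worms were synchronized mid-L4 larvae raised at 20 C on OP50 bacteria under one treatment, and RNA came from whole animals. Each of 4 two-colour arrays held both genotypes. The arrays covered 3 biological replicates, with replicate 1 on a pair of arrays with exchanged dyes that were averaged, so that n = 3 for every ratio.

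Desaturases introduce double bonds into fatty acids. The stearoyl-CoA desaturases FAT-5, FAT-6 and FAT-7 make monounsaturated fatty acids, of which oleic acid is the main product of FAT-6 and FAT-7. FAT-2 turns oleic acid into linoleic acid, FAT-1 makes omega-3 fatty acids, and the front-end desaturases FAT-3 and FAT-4 lead on to the longer polyunsaturated fatty acids. SBP-1, the nematode relative of the mammalian sterol regulatory element binding proteins, acts with the Mediator subunit MDT-15 to maintain transcription of the stearoyl-CoA desaturase genes, largely in the intestine. The nuclear hormone receptors NHR-49 and NHR-80 also act on these genes.

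The comparison asked whether ceh-23 affects the levels of these transcripts in animals with a mutated complex III. None of the 8 genes passed in limma at an adjusted p of 0.05, where 3.37% of all genes tested passed (0.775% higher and 2.59% lower in the double mutant). That share changes readily with the settings: 459 of the 461 genes behind it had an adjusted p just under the threshold, and only 1 gene passed without replicate 2, with outlier spots kept or without the filter on dim probes. The stearoyl-CoA desaturase gene fat-7 came nearest, with a signal 1.49-fold lower in the double mutant (log2 ratio -0.58, SD 0.24, n = 3, limma adjusted p = 0.0533). Its relative fat-5 had a log2 ratio of -0.28 (SD 0.16, limma adjusted p = 0.126), and fat-3 had 0.29 (SD 0.030, limma adjusted p = 0.095). The other 5 genes had log2 ratios from -0.091 to 0.13. At an unadjusted p of 0.05, 3 of the 8 passed, with fat-3 higher and fat-5 and fat-7 lower, against 35.9% of all genes (13.6% higher and 22.3% lower). The members' median log2 ratio was 0.044 and that of all genes was -0.014.

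The arrays gave clear signals for these genes other than fat-7 and fat-5, whose signals were dim. The 8 genes had 16 probes, of which all 16 were well above background in both genotypes on all 4 arrays, and none was saturated. Over all spots, the median Cy5 signal of an array was 109.5 to 216, over a local background of 59.5 to 61. For Cy3 the signal was 164 to 258.5 and the background 38 to 63. The fat-7 and fat-5 probes were the dimmest of the 16, with raw signals of 119.5 to 453 and 189 to 912. The lowest fat-7 signal was 1.96 times its local background. Different probes bind labelled RNA with different strength, so the levels below were compared between genotypes and not between genes. The single ceh-23 probe was well above background on 2 of 4 arrays in each genotype, with a log2 ratio of -0.093 (SD 0.096, limma adjusted p = 0.529). This adjusted p came from a separate fit over all probes, without the filter on dim probes. The probe's place relative to the ms23 lesion is not given in the sources used here, so its ratio checks neither label. Labels call the replicates biological, and p-values measure the spread between these 3.

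Among the stearoyl-CoA desaturases, fat-7 (F10D2.9, chromosome V) had a single probe. Its normalized log2 signal in isp-1 was 8.02 (dye-flip array) and 7.68 (first array) in replicate 1, while replicate 2 gave 8.44 and replicate 3 gave 7.77. In the double mutant the same arrays gave 7.21, 7.49, 7.59 and 7.39, all below the lowest isp-1 value. Genotypes that did not overlap over the 3 replicates, with the double mutant lower, were found for 19.1% of all genes. The gene had log2 ratios of -0.81 (dye-flip array) and -0.19 (first array) in replicate 1, -0.85 in replicate 2 and -0.39 in replicate 3, with a 95% interval of the mean from -0.88 to -0.28. Of all genes, 6.10% had a smaller p and 8.39% a lower ratio.

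The size of the fat-7 difference and its side of the threshold depended on the processing, and its direction did not. From the scanner's own log ratios fat-7 had -1.06 (limma adjusted p = 0.0432), where 12.7% of all genes passed. Without an offset in the background correction it had -0.78 (limma adjusted p = 0.0326), where 10.9% passed. Without replicate 3 the limma adjusted p was 0.00157, with 43.3% of all genes past the threshold, while centring each array on its median instead of loess gave 0.456, with 0 genes past the threshold in limma (1481 at an unadjusted p of 0.05). In whole animals, fewer cells that make a transcript and less of it per cell cannot be told apart.

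The palmitic acid desaturase gene fat-5 (W06D12.3, chromosome V) was read by 4 probes, whose mean log2 ratios ran from -0.35 to -0.22. The gene's log2 ratios were -0.58 and -0.16 in replicate 1 (dye-flip array first here and below), -0.38 in replicate 2 and -0.095 in replicate 3. All 4 arrays thus lay below 0, while the normalized signals of the genotypes overlapped across replicates, at 8.27 to 9.01 in the double mutant and 8.64 to 9.10 in isp-1. The 95% interval of the mean ran from -0.54 to -0.017. Without replicate 3 the gene had -0.37 and passed (limma adjusted p = 0.0184), as did 43.3% of all genes.

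For fat-6 (VZK822L.1, chromosome IV), which shares its substrate with fat-7, the log2 ratios were -0.28 and 0.12 in replicate 1, -0.044 in replicate 2 and -0.15 in replicate 3. The mean was -0.091 (SD 0.053, 95% interval -0.32 to 0.14, limma adjusted p = 0.515). One of its 3 probes had an outlier spot in replicate 2, which was left out there, and the other probes had mean ratios of -0.16 and -0.060. The ratio of fat-7 was lower than that of fat-6 on 4 of 4 arrays, by a mean of -0.49 on the log2 scale (SD 0.29, n = 3). It was lower than that of fat-5 on 4 of 4 arrays as well, by -0.30 (SD 0.17). With 3 replicates the two-sided exact sign-flip permutation test cannot go below p = 0.25, which both differences had (adjusted p = 0.313 over the 5 pairs of members compared). The probe sequences were not used here, so whether the fat-6 and fat-7 probes each read 1 gene was not tested.

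**Figure D1:**
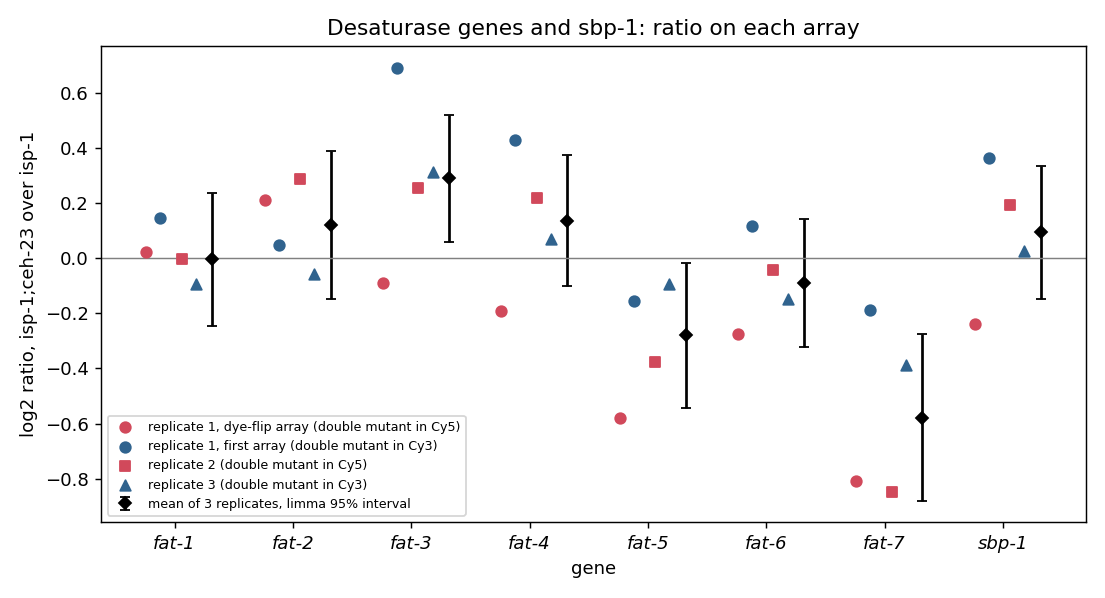
Log2 ratio of isp-1;ceh-23 over isp-1 (vertical axis) for each of the 8 genes (horizontal axis) on each array, coloured by the dye of the double mutant, with the mean of 3 replicates and its limma 95% interval in black. All 4 fat-7 and all 4 fat-5 points lie below 0, while the other 6 genes have points on both sides.

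The polyunsaturated fatty acid desaturases lie in 2 places on chromosome IV. In the WBcel235 annotation fat-3 and fat-4 have no gene between them, and fat-1 and fat-2 are separated by 1 gene that does not code for protein. The gene fat-3 (W08D2.4), for the front-end desaturase that acts on linoleic acid, had 1 probe with replicate log2 ratios of 0.30, 0.25 and 0.31. These 3 values lay close together, while within replicate 1 the dye-flip and first arrays gave -0.090 and 0.69. Over replicates, the normalized log2 signal of fat-3 was 13.34 to 13.42 in the double mutant and 13.04 to 13.17 in isp-1, without overlap, as for 10.1% of all genes in this direction. On single arrays the genotypes overlapped, since the dye-flip array gave 13.28 in isp-1 and 13.19 in the double mutant. With the dye as a covariate fat-3 passed (0.29, limma adjusted p = 0.0492), as did 30.3% of all genes. That covariate was balanced in replicate 1, so it contrasted replicates 2 and 3 and did not use the dye exchange within replicate 1.

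Its neighbour fat-4 (T13F2.1), whose enzyme makes arachidonic acid, had log2 ratios of -0.19 and 0.43 in replicate 1, 0.22 in replicate 2 and 0.069 in replicate 3 (mean 0.13, SD 0.075, 95% interval -0.10 to 0.37). Its 3 probes had means between 0.099 and 0.18. The ratio of fat-3 was higher than that of fat-4 on 4 of 4 arrays, by a mean of 0.15 (SD 0.11, two-sided exact sign-flip permutation p = 0.25, adjusted p = 0.313). The linoleic acid producer fat-2 (W02A2.1) gave 0.21 and 0.048 in replicate 1, 0.29 in replicate 2 and -0.058 in replicate 3 (mean 0.12, SD 0.17, 95% interval -0.15 to 0.39). The omega-3 desaturase gene fat-1 (Y67H2A.8) gave 0.022, 0.15, -0.0039 and -0.093 in the same order (mean -0.0042, SD 0.088, 95% interval -0.24 to 0.24). Its 2 probes had means of -0.073 and 0.064. None of these 3 genes had one sign on all 4 arrays, and their intervals include 0.

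The regulator gene sbp-1 (Y47D3B.7, chromosome III) had log2 ratios of -0.24 and 0.36 in replicate 1, 0.19 in replicate 2 and 0.025 in replicate 3. The mean was 0.093 (SD 0.088, n = 3, 95% interval -0.15 to 0.33, limma adjusted p = 0.516). Its normalized log2 signal was 11.85 to 12.46 in the double mutant and 11.82 to 12.40 in isp-1, so that the genotypes overlapped over nearly the whole range. A transcript level does not show how much SBP-1 protein is processed to its nuclear form.

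**Figure D2:**
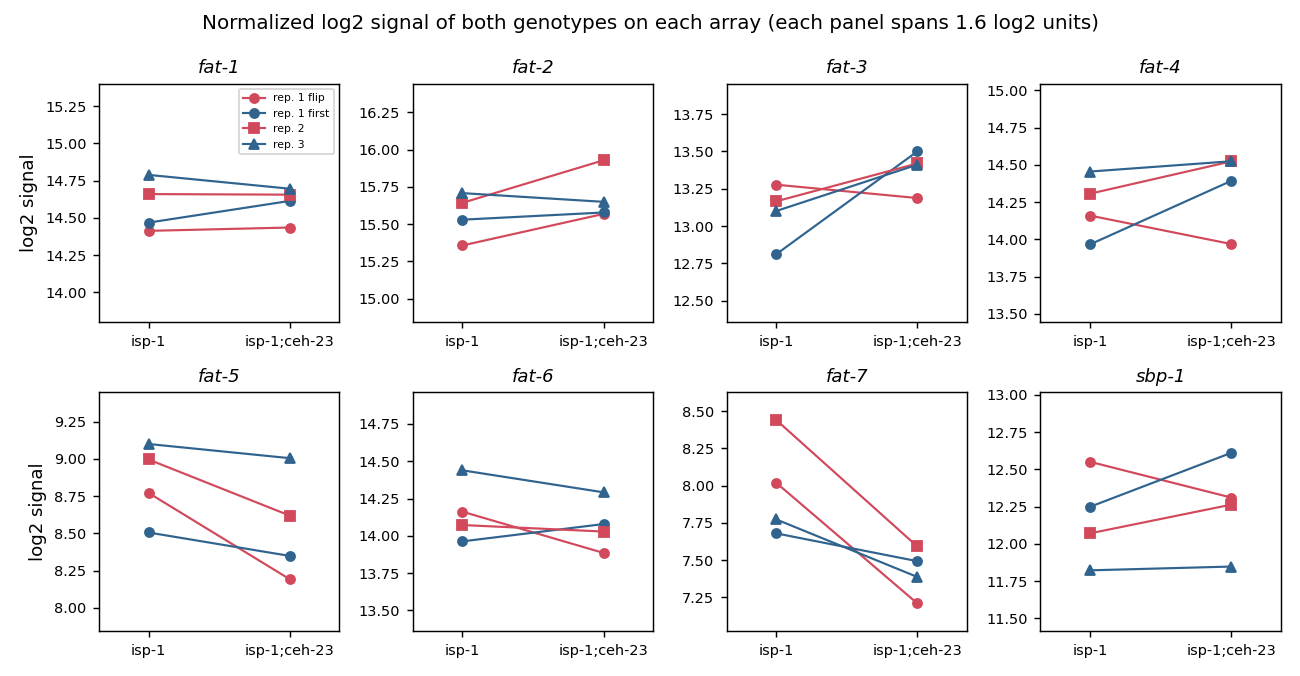
Normalized log2 signal (vertical axis) of isp-1 and of isp-1;ceh-23 (horizontal axis) for each gene, with a line per array, coloured by the dye of the double mutant (red, Cy5; blue, Cy3). Each panel spans the same number of log2 units. The fat-7 signal was 7.68 to 8.44 in isp-1 and 7.21 to 7.59 in the double mutant, lower on all 4 arrays.

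The dye orientation moved with the members' ratios within replicate 1. There, 7 of the 8 genes had a lower ratio on the dye-flip array, where the double mutant was in Cy5, than on the first array, as did 61.0% of all genes. The gap was -0.78 for fat-3, -0.62 for fat-4, -0.62 for fat-7 and -0.60 for sbp-1 on the log2 scale, where the median size over all genes was 0.31. Over both arrays of each orientation, fat-7 had means of -0.83 with the double mutant in Cy5 and -0.29 with it in Cy3, and fat-5 had -0.48 and -0.13, below 0 in both. For fat-3 the same means were 0.082 and 0.50. Averaging the orientations equally gave -0.56 for fat-7, -0.30 for fat-5 and 0.29 for fat-3. Replicate 1 did not share a slide with replicates 2 and 3, which were together. On their slide alone fat-7 had a log2 ratio of -0.62 (limma adjusted p = 0.19), fat-5 had -0.24 and fat-3 had 0.28.

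Only 2 of the 8 genes, fat-5 and fat-7, had one sign on all 4 arrays, both lower in the double mutant, where 20.9% of all genes were higher and 25.3% lower on all 4. None of the 8 combined this with a ratio of at least 1.5-fold, which 1.37% of all genes did upward and 7.89% downward. At 1.49-fold fat-7 lay just short of it. Both conditions were met for fat-7 with an offset of 0 (-0.78), the scanner's log ratio (-1.06) and the series table (-1.06). They were also met with no background correction (-0.61) and with median centring (-0.62). The share of all genes that met both was not counted in these settings. The genes whose 4 array ratios lay closest to those of fat-7 were T07D4.5, at a Euclidean distance of 0.079, and zif-1, at 0.10. Another 124 genes lay within 0.3.

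**Figure D3:**
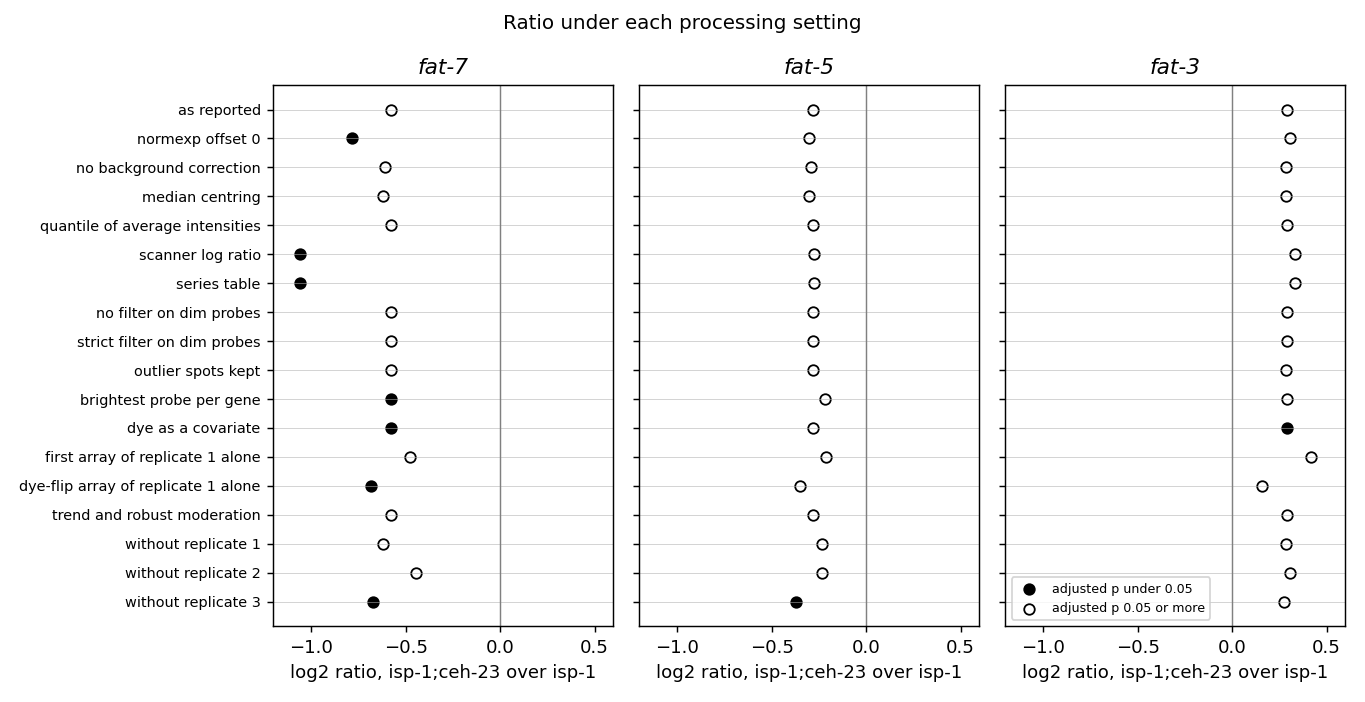
Log2 ratio of isp-1;ceh-23 over isp-1 (horizontal axis) for fat-7, fat-5 and fat-3 under each processing setting (vertical axis), with filled points where the limma adjusted p was under 0.05. All fat-7 and fat-5 points lie below 0 and all fat-3 points above it, and fat-7 ranges from -1.06 to -0.44.

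Other genes around desaturation were read from lists. Of 39 listed genes of SBP-1 regulation, phosphatidylcholine synthesis, fatty acid synthesis and elongation, electron transfer to desaturases and triglyceride storage, 35 were tested. In limma over all genes 0 passed, where 3.37% of all genes did, and 2 were at an unadjusted p of 0.05, where 35.9% of all genes were. Over the 10 partners and regulators the log2 ratios ran from -0.18 to 0.18 (median 0.059). The smallest p-values there belonged to nhr-80 at 0.18 (SD 0.093, limma adjusted p = 0.244), the AMP-activated kinase gene aak-2 at 0.17 (SD 0.23) and the membrane fluidity regulator gene paqr-2 at -0.18 (SD 0.36). For mdt-15 the ratio was 0.036 (SD 0.16) and for nhr-49 it was -0.017 (SD 0.11). Low phosphatidylcholine is known to activate SBP-1, and the 5 tested genes of its synthesis had a median of -0.047. Their smallest p-values were those of the S-adenosylmethionine synthetase gene sams-1 at 0.20 (SD 0.19), the phosphatidylcholine synthesis gene pcyt-1 at -0.12 (SD 0.10) and the phosphoethanolamine methyltransferase gene pmt-2 at -0.11 (SD 0.20).

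The 12 tested genes of fatty acid synthesis and elongation had a median log2 ratio of 0.013. The fatty acid synthase gene fasn-1 had 0.36 (SD 0.32, limma adjusted p = 0.127), the acetyl-CoA carboxylase gene pod-2 had 0.22 (SD 0.21) and the elongase gene elo-7 had -0.31 (SD 0.26). Values of fasn-1 were 0.61 and 0.039 in replicate 1, 0.70 in replicate 2 and 0.066 in replicate 3, so that both large values came from arrays with the double mutant in Cy5. The electron donor genes cytb-5.1, cytb-5.2 and hpo-19 had 0.18 (SD 0.093), 0.059 (SD 0.066) and -0.083 (SD 0.12). Among 5 genes of triglyceride storage (median 0.029), the diacylglycerol acyltransferase gene dgat-2 had 0.37 (SD 0.21, limma adjusted p = 0.0896), the lipid droplet gene plin-1 had -0.28 (SD 0.20) and the acyl-CoA synthetase gene acs-22 had 0.15 (SD 0.062). With a variance trend and robust moderation fasn-1 and dgat-2 passed (limma adjusted p = 0.0454 for both), as did 13.8% of all genes.

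The intestine, the main site of these desaturases, gave no call among its 11 markers, where 3.37% of all genes passed. All 6 yolk protein genes and all 8 germline markers were lower in the double mutant on all 4 arrays. This held for 25.3% of all genes. Pharynx, body wall muscle and neuron markers had ratios above 0. Of the 11 intestine markers, 1 was at an unadjusted p of 0.05, where 35.9% of all genes were, and 0 passed in limma after adjustment. The log2 ratios of these markers ran from -0.14 to 0.38, with a median of 0.0055. Their summed normalized signal, in units of 1000 on the intensity scale, was 264 to 302 in the double mutant and 241 to 290.2 in isp-1, and the double mutant was lower in 1 of 3 replicates. The 6 yolk protein genes, also transcribed in the intestine, had a median log2 ratio of -1.87. All 6 were at an unadjusted p of 0.05 and 5 were past the adjusted threshold, as were 22.3% and 2.59% of all genes downward. The summed yolk signal was 26.5 to 124 against 175 to 324. The 8 germline markers had a median of -0.64, all 8 at an unadjusted p of 0.05 and 2 past the adjusted threshold, and their sums were 29.0 to 33.6 against 42.8 to 64.5, without overlap. These calls changed with the processing. No yolk or germline gene passed without replicate 2, with outlier spots kept or without the filter on dim probes. The same held without background correction and with median centring. At most 2 of all genes passed in any of these settings. All 6 yolk and all 8 germline genes passed without replicate 3, where 43.3% of all genes passed. Every yolk and germline ratio stayed below 0 in all of these settings. Among 8 tested hypodermis markers none passed. The 4 at an unadjusted p of 0.05, where 35.9% of all genes were, went in opposite directions. The adult cuticle collagen gene col-19 had -1.56 and was lower on all 4 arrays, while the cuticle collagen genes dpy-7 (0.71), dpy-10 (0.61) and rol-6 (0.38), all made in larvae, were higher on all 4. These 4 were singled out after their values were seen. The other tested markers, elt-3 (0.20), the collagen gene col-12 (-0.0061), lin-26 (-0.12) and elt-1 (-0.23), had mixed signs over the arrays. The summed hypodermis signals overlapped, at 152 to 179.6 against 149 to 195.

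Of 5 tested markers of pharynx, where fat-5 is also transcribed, 4 were higher on all 4 arrays, as were 20.9% of all genes. These 4 were also at an unadjusted p of 0.05, as were 13.6% of all genes upward, and 0 passed in limma after adjustment. The 5 markers had a median of 0.57 (range 0.087 to 0.99), with medians of 1.05, 0.35 and 0.32 in replicates 1, 2 and 3. The sums were 4.26 to 10.7 against 2.05 to 8.20, higher in the double mutant in 3 of 3 replicates. Body wall muscle markers had a median of 0.36, with 3 of 5 higher on all 4 arrays, and neuron markers had 0.26, with 4 of 6. The part of these shifts in the fat-7 and fat-5 ratios was not tested, and stage and genotype cannot be told apart.

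**Figure D4:**
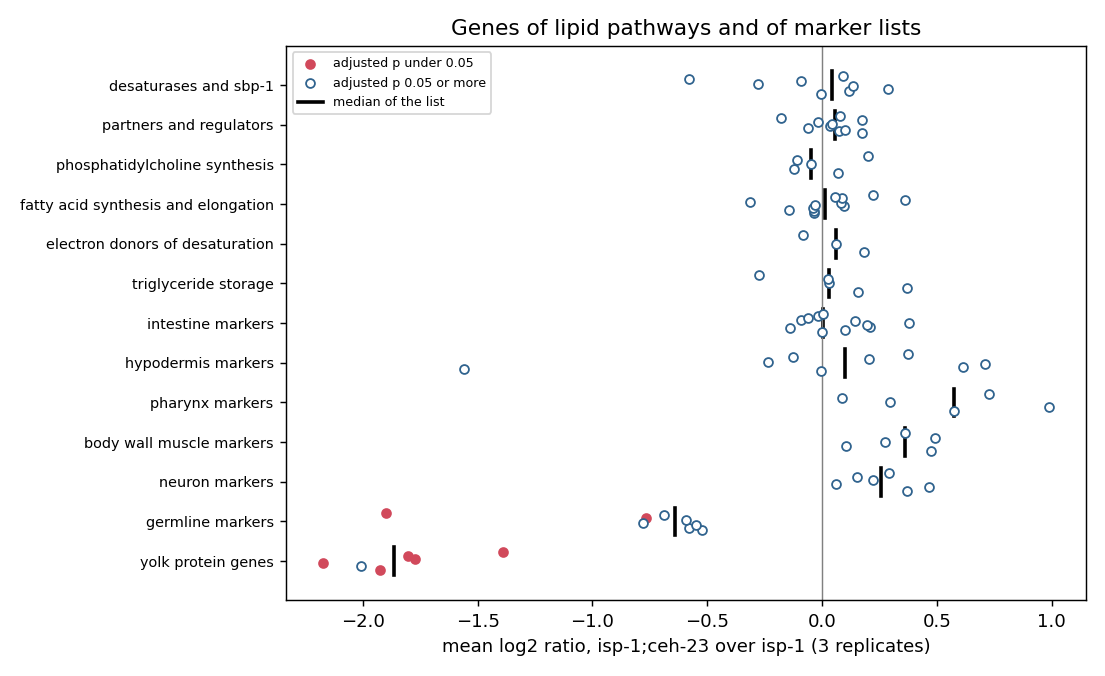
Mean log2 ratio over 3 replicates (horizontal axis) of each tested gene in the lipid pathway lists and marker lists (vertical axis), filled where the limma adjusted p was under 0.05, with the list median as a black bar. The desaturases and sbp-1 spread from -0.58 to 0.29 with none filled, while 5 of 6 yolk protein genes and 2 of 8 germline markers are filled and lie below 0.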

How the data were processed

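Per the labels' protocols, cRNA was amplified from 100 ng of total RNA and labelled with Cy3 or Cy5. Per the file headers, the authors quantified the arrays with Agilent Feature Extraction 10.5.1.1, on a design of build ce4. The deposited median signals are intensity values without background subtraction, and the deposited log10 ratios are of processed Cy5 over Cy3. The deposited series table differed from those by less than 0.005. Other deposited columns are flags of 0 or 1.

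Background correction by normexp in limma 3.58.1 under R 4.3.3 used an offset of 50, which shrinks ratios of dim probes, and arrays were normalized by loess. Outlier spots were left out, and ratios were turned by the dye in the labels. Probes well above background in 1 genotype in all replicates were kept (26248 of 43603), named through the RefSeq table of WBcel235 by sequence name with isoform letter and transcript number dropped, and averaged per gene. Mean ratios were tested for a difference from 0 by limma (lmFit, then eBayes; two-sided), Benjamini-Hochberg adjusted over 13685 genes, and the number of arrays limits the precision. Genotype signals were taken after quantile normalization of average intensities. The fit was tested on simulated data, which held no effects of slide or single array.

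Named were the 8 members, ceh-23 and up to 3 genes of each pathway list with the smallest unadjusted p where none passed. The 2 genes nearest to a member with a ratio of at least 0.5 were named as well. Outside this rule, mdt-15 and nhr-49 were named as regulators described at the start, while other tested genes of their list were not. The 8 tested hypodermis markers were named outside it as well, 4 of them singled out after their values were seen. The members and lists were chosen with earlier results of these data known.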

Additional observations from a re-analysis of the deposited data

How the results depend on the processing

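Over 17 alternatives each (16 for fat-6), fat-3, fat-4, fat-5, fat-6 and fat-7 kept the sign of their ratio. The fat-7 ratio passed with an offset of 0 (-0.78), with the scanner's log ratio and the series table (-1.06 in each), with the brightest probe per gene (-0.58), with dye as a covariate (-0.58), with the dye-flip array of replicate 1 alone (-0.68) and for its probe in a fit over all probes (-0.58, limma adjusted p = 0.043). Leaving out 1 replicate gave -0.67 to -0.44 for fat-7, -0.37 to -0.23 for fat-5 and -0.048 to 0.040 for fat-1. With dye as a covariate, which contrasted only replicates 2 and 3, fat-3 passed at 0.29. The fat-1 ratio, near 0, turned to 0.0096 with an offset of 0, to 0.027 with median centring, to 0.025 with the scanner's log ratio and the series table, to 0.016 with the first array of replicate 1 alone, and to 0.064 for 1 of its probes. The fat-2 ratio turned to -0.012 with the scanner's log ratio and the series table, and the sbp-1 ratio to -0.0073 with the dye-flip array alone. Members past the threshold numbered 2 with dye as a covariate, where 30.3% of all genes passed. They numbered 1 with an offset of 0 (10.9% of all genes), the scanner's log ratio and the series table (12.7% in each). The number was also 1 with the brightest probe (7.08%) and the dye-flip array alone (5.36%). It was 0 to 2 when a replicate was left out, where 0.00725% to 43.3% of all genes passed. Members with one sign on all 4 arrays numbered 1 with median centring and 4 with the scanner's log ratio and the series table. The share of all genes with one sign was not counted in these settings. Of the 35 tested pathway genes, 2 passed with dye as a covariate, 2 with trend and robust moderation (13.8% of all genes) and 0 to 6 when a replicate was left out. Members with one sign and at least 1.5-fold, counted in alternatives added after seeing the data, numbered 1 (fat-7) with median centring and without background correction. They also numbered 1 (fat-7) with an offset of 0, the scanner's log ratio and the series table. The share of all genes was not counted for this rule in these alternatives. Of all genes 461 passed, against 0 with median centring, 1 without replicate 2, with outlier spots kept or with no dim filter, 2 with no background correction, 103 without replicate 1 and 5938 without replicate 3. The marker lists, also added, had 0 to 8 of 8 germline and 0 to 6 of 6 yolk genes past the threshold, with every ratio below 0. The causes were not tested, except that the offset by its construction shrinks ratios of dim spots. A fit with slide as a random block could not be made, since 3 values on 2 slides gave no correlation estimate. The test of ratios within arrays is itself the paired one. Signal over background limits fat-7 and fat-5 most.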
